A study of Mus musculus with 17 samples.

Results

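The genes described here encode enzymes and membrane proteins of the lysosome, together with the transcription factors of the microphthalmia family that govern such genes. They are 38 named genes, chosen by role with earlier results of these data known, so their counts are not an independent test. Each was measured, out of 22180 genes with their own probe set. The cathepsins and the subunits of the proton pump were left out. Signals come from periprostatic fat, which surrounds the prostate gland, taken from 17 C57BL/6J males, each on 1 Affymetrix Mouse Gene 2.0 ST array. The HFD_CR group (n = 5) ate a diet with 60 kcal% fat freely for 12 weeks and then, for 7 weeks, 70% of what the HFD group ate. The HFD group (n = 6) ate the same diet without limit throughout, and the LFD group (n = 6) ate a diet with 10 kcal% fat without limit. Diets began at 6 weeks of age and all mice were killed at 25 weeks. The sources used here do not give the hour at which tissue was taken, or whether the mice had been fed.

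Lysosomes are acidic organelles in which proteins, glycans, lipids and glycosaminoglycans are broken down into units that are carried back to the cytosol. Most of their soluble enzymes are tagged with mannose 6-phosphate and delivered from the Golgi. In adipose tissue they are known for the macrophages around dying adipocytes, which take up and degrade lipid, and for autophagy within adipocytes. Adipocytes and macrophages both carry lysosomes, so a bulk signal sums over them. Fewer cells of a type and less RNA per cell cannot be told apart in such samples.

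Most of these genes were higher on the high-fat diet, and most of those were lower again when intake was restricted. In HFD against LFD mice, 29 of 38 rose and 2 fell at an adjusted p under 0.05, from limma with Benjamini-Hochberg adjustment over all 22180 genes. Over all genes, 16.5% rose and 11.3% fell in that comparison. The 2 that fell were Ids and Arsb, and Arsb did so with only 1 of its 2 probe sets. The median log2 difference was 0.33 for the 38 genes and -0.003 for all genes. In HFD_CR against HFD mice 23 fell and 1 rose, whereas 11.3% of all genes fell and 7.69% rose, and the median differences were -0.22 and -0.002. In HFD_CR against LFD mice 5 rose and none fell, whereas 5.8% of all genes rose and 3.28% fell. At an adjusted p under 0.01 the counts there were 4 and 0, against 615 and 352 of all 22180 genes. At an unadjusted p under 0.05 the same limma fit gave 15 higher and 2 lower genes of the 38 in that comparison. The share of all genes at this looser threshold was not counted, so the shares above are no background for these counts. After adjustment 1 lower gene passed with array weights, and 1 with quantile normalization applied again. In HFD against LFD mice the groups did not overlap for 22 genes that were higher and 1 that was lower, against 9.05% and 5.21% of all genes. In HFD_CR against HFD mice they did not overlap for 21 that were lower and 1 that was higher, against 8.26% and 5.42% of all genes. In HFD_CR against LFD mice that held for 5 that were higher and 0 that were lower, against 4.24% and 2.43%. These 5 are not the 5 that passed: they include Sgsh, which had no call, and not Tfec, whose ranges overlapped. Each group enters more than 1 of these comparisons, so the counts are set side by side and are not independent. All genes include many dim ones: the median gene averaged 7.53, and the 38 genes averaged 10.21 to 10.61 by group. With only genes above that median fitted, 3320 of them rose and 2079 fell in HFD against LFD mice. In HFD_CR against HFD mice 2405 fell and 1753 rose, and in HFD_CR against LFD mice 1473 rose and 845 fell. The shares among bright genes were thus higher than the shares over all genes given above. Those shares therefore understate the background for genes as bright as most of the 38. Differences below are on the log2 scale and carry their SE.

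**Figure D1:**
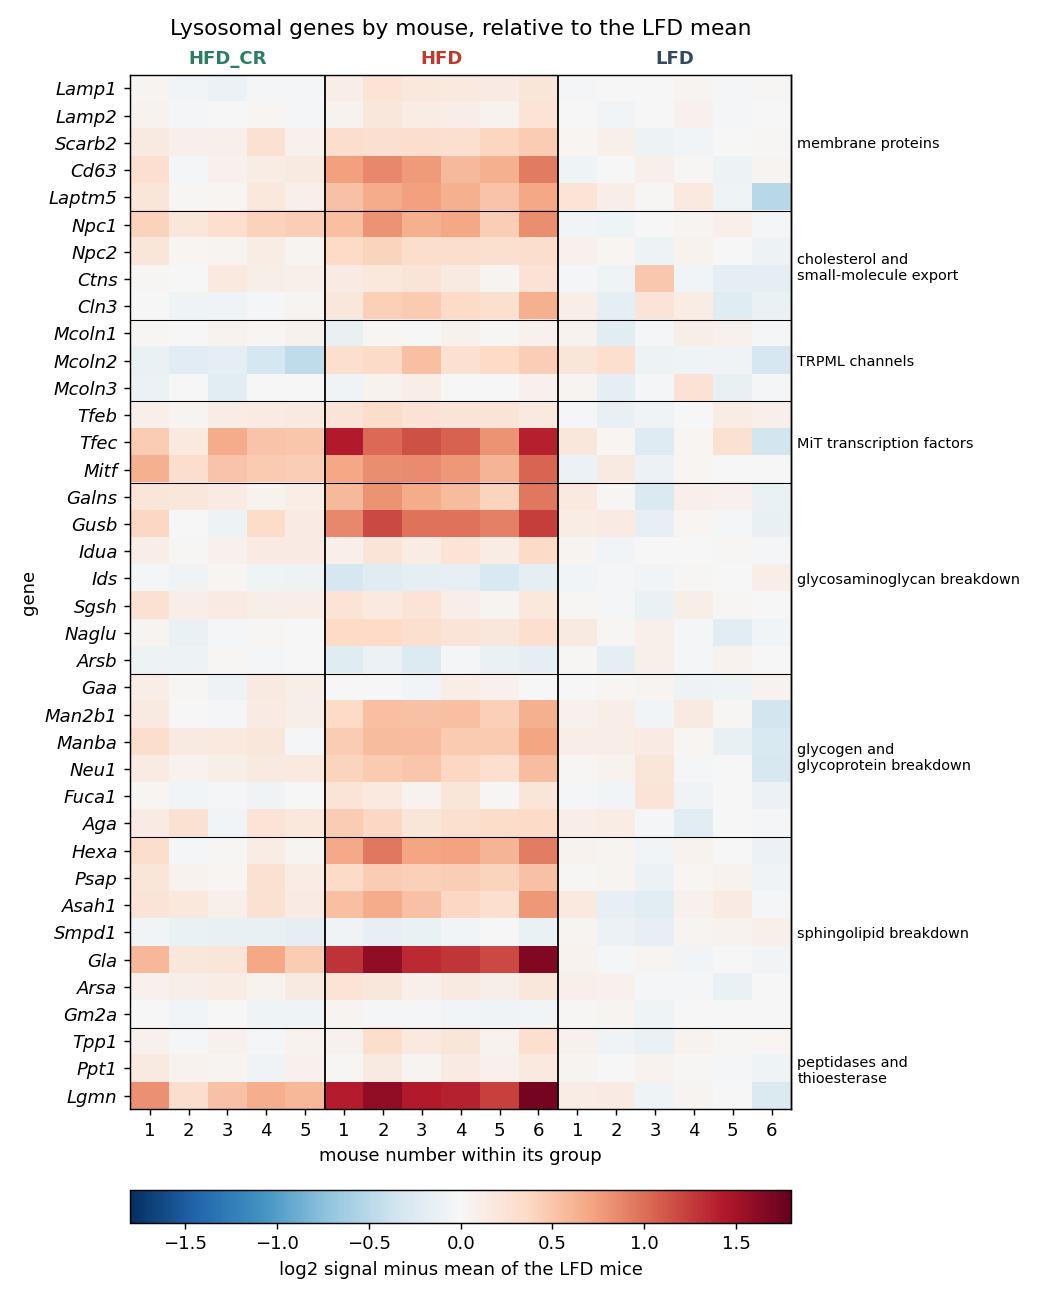
Log2 signal of each of the 38 genes (rows, grouped by role) in each mouse (columns), minus the mean of the 6 LFD mice for that gene. Red is above the LFD mean and blue below it. The 6 HFD columns are red in most rows, most deeply for Lgmn, Gla, Tfec and Gusb, the HFD_CR columns are paler, and Ids is blue in the HFD columns.

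The arrays were alike in scale, with median signals between 7.03 and 7.15, but some had high signals for genes of other tissues. A list of skeletal muscle or of prostate and accessory gland genes lay more than 1 log2 unit above the median array in 6 arrays (HFD_CR mouse 2, HFD mice 3 and 6, and LFD mice 2, 3 and 5). A male germ cell list did so in HFD_CR mouse 1, and a thermogenic adipocyte list in LFD mice 1, 3 and 6. A urothelium list did so in LFD mouse 3 and a B and T cell list in LFD mouse 5, both already among the 6 arrays. Without the 6 arrays, 24 of the 38 genes rose and 1 fell in HFD against LFD, 18 fell and 1 rose in HFD_CR against HFD, and 5 rose and none fell in HFD_CR against LFD. Without the 3 thermogenic arrays these counts were 28 and 1, 22 and 1, and 4 and none, and without the germ cell array 28 and 2, 23 and 1, and 5 and none. Centring each array on its median turned the share of higher genes among all called genes to 47.9%, against 59.4% as deposited, in HFD minus LFD. Quantile normalization applied again gave 47.9% there and 51.4%, against 40.5%, in HFD_CR minus HFD. Among the 38 genes these scalings gave 27 and 26 that rose and 2 that fell in HFD minus LFD, and 21 that fell in HFD_CR minus HFD. The genes of adipocytes marked the tissue as fat: Fabp4 measured 14.06 in HFD_CR, 13.99 in HFD and 14.04 in LFD mice on average.

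Tfeb, Tfec and Mitf encode transcription factors of the microphthalmia family, which bind as dimers to short palindromic sites and can switch on lysosomal genes. All 3 rose in HFD against LFD mice, as did 16.5% of all genes. Their HFD and LFD values did not overlap, as was so for 9.05% of all genes in that direction. Mitf measured 9.45, 9.12, 9.33, 9.28 and 9.25 in HFD_CR mice, 9.42 to 9.86 (median 9.62) in HFD mice and 8.70 to 8.97 (median 8.81) in LFD mice. The HFD mice were highest, the HFD_CR mice reached only the lower edge of the HFD range, and no HFD_CR value lay within the LFD range. Mitf differed by 0.81 ± 0.07 (adjusted p = 1.3e-07) in HFD minus LFD, by -0.33 ± 0.07 (adjusted p = 0.00371) in HFD_CR minus HFD and by 0.48 ± 0.07 (adjusted p = 0.000481) in HFD_CR minus LFD. Without the 6 arrays with high muscle or gland lists the HFD_CR minus HFD difference of Mitf was -0.22 and no longer passed (adjusted p = 0.056). Tfec measured 7.61, 7.33, 7.83, 7.66 and 7.66 in HFD_CR mice, 7.96 to 8.57 (median 8.26) in HFD mice and 6.82 to 7.43 (median 7.19) in LFD mice. Tfec, a member known from macrophages in mice, was highest in HFD mice and intermediate in HFD_CR mice, whose range overlapped the LFD range. It differed by 1.14 ± 0.12 (adjusted p = 7.98e-07) in HFD minus LFD, 2.21-fold, and by -0.68 ± 0.12 (adjusted p = 0.000694) in HFD_CR minus HFD. The difference was 0.47 ± 0.12 (adjusted p = 0.0224) in HFD_CR minus LFD, and that call ended at 0.41 without HFD_CR mouse 3 (adjusted p = 0.0689), at 0.45 without HFD_CR mouse 4 (adjusted p = 0.0542) and at 0.40 without LFD mouse 6 (adjusted p = 0.0512). It was smaller still, at 0.35, without the 3 arrays with a high thermogenic list (adjusted p = 0.169). In 2 LFD mice Tfec lay below the median of its array, where a signal may lie at background. With array medians in place of those signals the HFD minus LFD difference of Tfec was 1.08.

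Tfeb, the best known regulator of lysosome formation, measured 7.29, 7.24, 7.33, 7.35 and 7.35 in HFD_CR mice, 7.37 to 7.52 (median 7.43) in HFD mice and 7.05 to 7.33 (median 7.18) in LFD mice. Its values were close to the array medians, and the HFD_CR mice overlapped the LFD mice. Tfeb differed by 0.24 ± 0.05 (adjusted p = 0.000579) in HFD minus LFD, whereas its differences of -0.12 ± 0.05 in HFD_CR minus HFD (adjusted p = 0.088) and 0.12 ± 0.05 in HFD_CR minus LFD (adjusted p = 0.154) did not pass. The HFD_CR and HFD values of Tfeb did not overlap, and that difference passed with only the arrays of the groups compared (adjusted p = 0.0454) and with array weights (adjusted p = 0.031). Tfe3, another member of the family, is named although the rule for named genes did not pick it. It differed by 0.19 ± 0.04 (adjusted p = 0.00198) in HFD minus LFD and by -0.22 ± 0.04 (adjusted p = 0.00187) in HFD_CR minus HFD. RNA levels say nothing of where these proteins are in the cell, which is how their activity is mainly set.

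The site these factors are known to favour is TCACGTG, which holds the core CACGTG. It was searched on both strands in RefSeq promoters (GRCm38.p6), each from 250 bases before to 50 bases after a transcription start. Promoters were at hand for 34 of the 38 genes, 42 in all, and not for Aga, Asah1, Galns and Npc1. TCACGTG stood in the promoters of 9 of these 34 genes (26.5%), against 871 of 16990 measured genes with a promoter (5.13%). Per promoter the share was 21.4%, against 4.51% of 20611. The core alone stood in 10 of 34 genes (29.4%, against 9.19%), and the related TCATGTG in 4 (11.8%, against 3.54%). The 9 genes with TCACGTG were Arsa, Cln3, Gaa, Gla, Lamp1, Lgmn, Mcoln1, Naglu and Sgsh. In HFD minus LFD, 7 of the 9 rose with a median difference of 0.18, and of the other 25 genes 18 rose and 2 fell with a median of 0.33. In HFD_CR minus HFD, 5 of the 9 fell (median -0.21), and 15 of the other 25 fell and 1 rose (median -0.20). Over all genes 16.5% rose and 11.3% fell in the first comparison, and 11.3% fell and 7.69% rose in the second. A match of letters is a description and not a bound site. Both the genes and the site were picked for their known link to these factors, so the higher share is not an independent result.

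Shown here are 5 promoters with the site. Lgmn and Gla are the genes with the largest differences, Lamp1 holds 4 cores, and Mcoln1 is a gene with no call. Cln3 had an HFD_CR mean below its LFD mean, by less than the SE of that difference. Capitals mark TCACGTG on either strand. Cores began at position -49 in Lgmn, -227 and -194 in Gla, -61, -45, -28 and -15 in Lamp1, -149 and -121 in Cln3, and -71 and -45 in Mcoln1, counted from the transcription start.
Lgmn, chr12:102439043-102439342, minus strand: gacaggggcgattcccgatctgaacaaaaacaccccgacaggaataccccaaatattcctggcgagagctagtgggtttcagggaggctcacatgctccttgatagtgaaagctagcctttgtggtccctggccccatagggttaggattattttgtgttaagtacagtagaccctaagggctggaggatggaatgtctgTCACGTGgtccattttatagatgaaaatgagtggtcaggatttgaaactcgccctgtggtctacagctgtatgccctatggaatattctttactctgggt
Gla, chrX:134600956-134601255, minus strand: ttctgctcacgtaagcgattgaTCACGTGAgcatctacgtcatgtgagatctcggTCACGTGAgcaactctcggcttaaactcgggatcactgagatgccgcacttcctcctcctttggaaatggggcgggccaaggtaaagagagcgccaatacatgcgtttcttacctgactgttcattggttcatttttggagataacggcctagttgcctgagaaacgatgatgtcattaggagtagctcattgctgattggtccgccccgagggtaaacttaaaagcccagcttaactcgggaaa
Lamp1, chr8:13158911-13159210, plus strand: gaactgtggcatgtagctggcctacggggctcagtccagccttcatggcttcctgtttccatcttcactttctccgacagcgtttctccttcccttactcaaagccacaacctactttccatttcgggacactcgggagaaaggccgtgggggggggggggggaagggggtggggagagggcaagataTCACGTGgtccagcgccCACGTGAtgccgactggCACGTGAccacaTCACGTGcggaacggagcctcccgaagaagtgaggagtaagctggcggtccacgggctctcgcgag
Cln3, chr7:126583187-126583486, minus strand: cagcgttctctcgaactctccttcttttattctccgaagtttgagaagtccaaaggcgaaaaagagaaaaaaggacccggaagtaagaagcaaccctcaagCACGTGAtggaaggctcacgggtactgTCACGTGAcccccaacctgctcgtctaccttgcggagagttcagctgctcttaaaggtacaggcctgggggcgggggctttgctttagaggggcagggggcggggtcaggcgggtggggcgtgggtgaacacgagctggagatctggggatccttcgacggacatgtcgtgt
Mcoln1, chr8:3500269-3500568, plus strand: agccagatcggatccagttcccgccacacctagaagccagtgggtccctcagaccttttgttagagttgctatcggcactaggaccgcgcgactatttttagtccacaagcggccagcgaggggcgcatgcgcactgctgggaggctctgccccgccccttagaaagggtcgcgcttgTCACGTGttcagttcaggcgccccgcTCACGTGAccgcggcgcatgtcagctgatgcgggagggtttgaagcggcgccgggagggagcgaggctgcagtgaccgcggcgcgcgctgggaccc
Lgmn and Cln3 each have a further RefSeq promoter without the site.

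**Figure D2:**
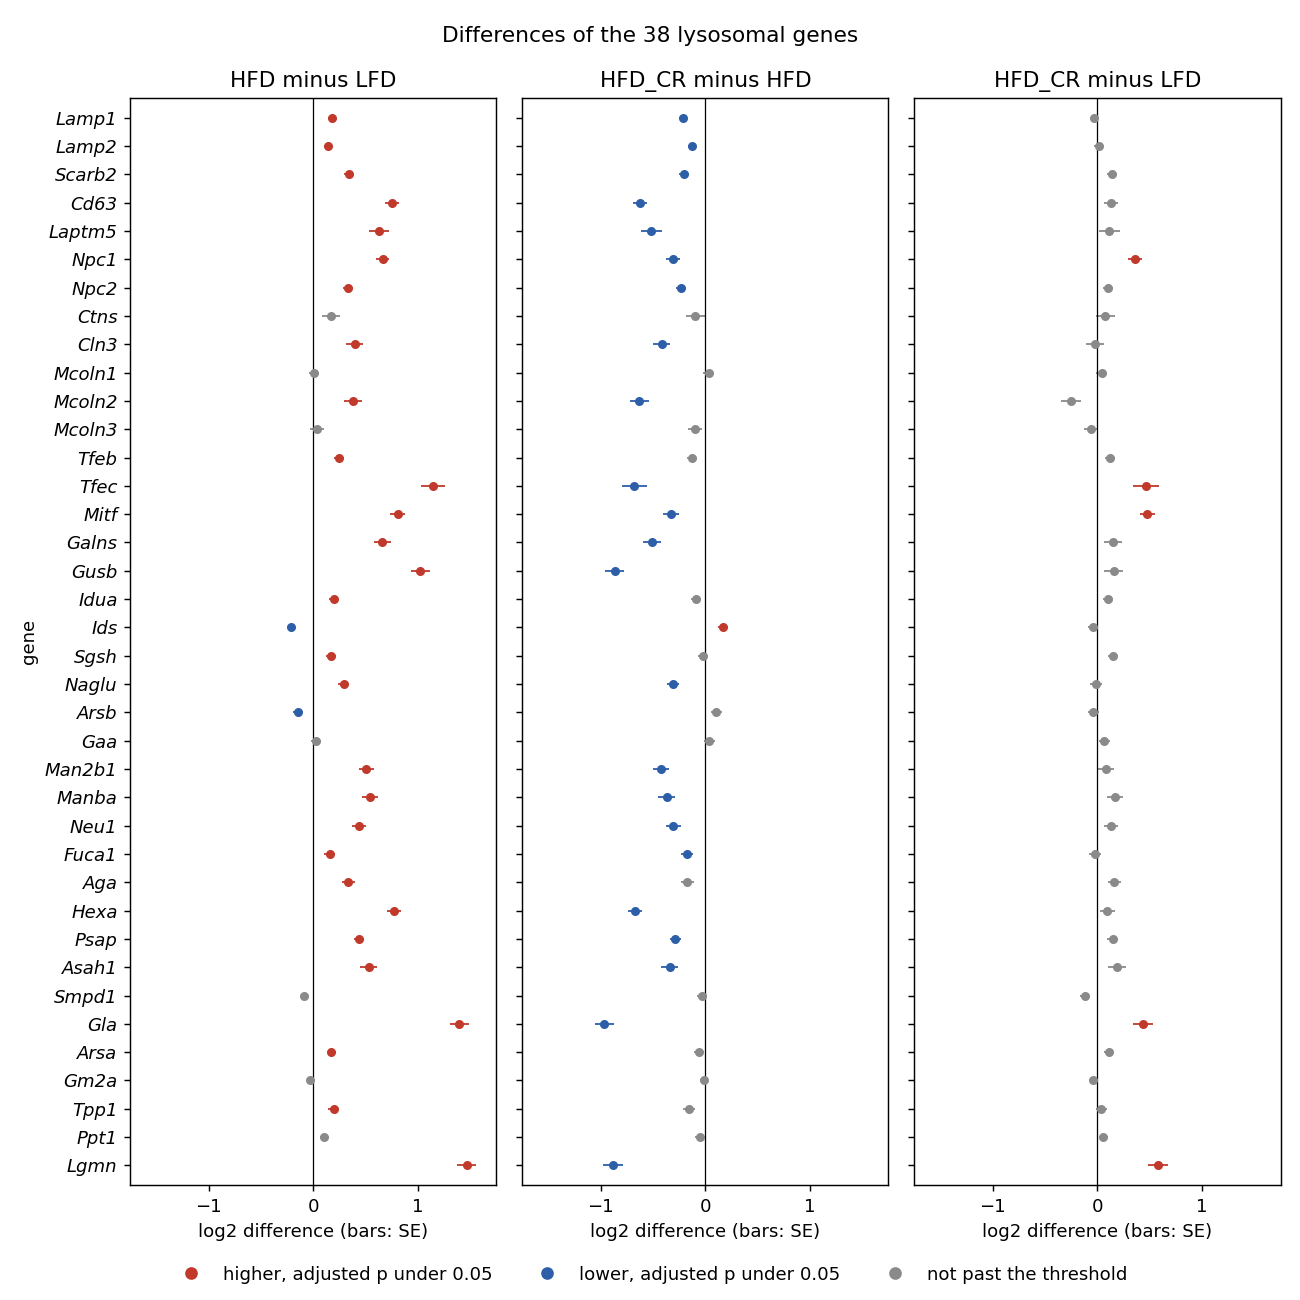
Log2 difference of each of the 38 genes (rows) in HFD minus LFD (left), HFD_CR minus HFD (middle) and HFD_CR minus LFD (right), with bars of 1 SE on either side. Red points rose and blue points fell at an adjusted p under 0.05, and grey points did not pass. In the left panel 29 points are red, in the middle panel 23 are blue, and in the right panel 5 are red: Npc1, Tfec, Mitf, Gla and Lgmn.

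All 5 membrane protein genes rose in HFD against LFD mice and all 5 fell in HFD_CR against HFD mice. Over all genes 16.5% rose and 11.3% fell in the first comparison, and 11.3% fell and 7.69% rose in the second. The same shares stand beside the counts per role below, which come from small lists chosen with earlier results known. Cd63, a tetraspanin of late endosomes and lysosomes, measured 11.30, 10.98, 11.09, 11.14 and 11.17 in HFD_CR mice, 11.59 to 11.94 (median 11.76) in HFD mice and 10.92 to 11.10 (median 11.02) in LFD mice. Its HFD values stood apart from both other groups, which overlapped. Cd63 differed by 0.75 ± 0.06 (adjusted p = 9.15e-08) in HFD minus LFD and by -0.62 ± 0.07 (adjusted p = 8.97e-06) in HFD_CR minus HFD. Scarb2, which carries glucocerebrosidase to the lysosome, measured 10.60, 10.53, 10.52, 10.70 and 10.51 in HFD_CR mice, 10.72 to 10.89 (median 10.75) in HFD mice and 10.35 to 10.53 (median 10.44) in LFD mice. The order was again HFD above HFD_CR, and the HFD_CR values began within the LFD range. Scarb2 differed by 0.34 ± 0.05 (adjusted p = 1.7e-05) in HFD minus LFD and by -0.20 ± 0.05 (adjusted p = 0.00579) in HFD_CR minus HFD. Laptm5, a lysosomal membrane protein of blood-derived cells, differed by 0.63 ± 0.10 (adjusted p = 5.76e-05) in HFD minus LFD and by -0.52 ± 0.10 (adjusted p = 0.00113) in HFD_CR minus HFD.

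Lamp1 and Lamp2 encode the most abundant glycoproteins of the lysosomal membrane, and their differences were small. Lamp1 averaged 12.64 ± 0.06 in HFD_CR (SD, n = 5), 12.85 ± 0.05 in HFD and 12.67 ± 0.04 in LFD mice (SD, n = 6 each). It differed by 0.18 ± 0.04 (adjusted p = 0.00121) in HFD minus LFD and by -0.21 ± 0.04 (adjusted p = 0.000832) in HFD_CR minus HFD. Lamp2 measured 11.83, 11.75, 11.77, 11.81 and 11.75 in HFD_CR mice, 11.83 to 12.01 (median 11.90) in HFD mice and 11.71 to 11.84 (median 11.76) in LFD mice. HFD and LFD mice overlapped in Lamp2. It differed by 0.14 ± 0.04 (adjusted p = 0.013) in HFD minus LFD and by -0.13 ± 0.04 (adjusted p = 0.0403) in HFD_CR minus HFD. The second of these calls ended when any of HFD_CR mice 2, 3, 4 and 5 or HFD mice 2, 3, 4 and 6 was left out (-0.13 to -0.11, adjusted p of 0.0518 to 0.0998). Without the 6 arrays with high muscle or gland lists, the HFD minus LFD calls of Lamp1 (0.16, adjusted p = 0.0871) and Lamp2 (0.09, adjusted p = 0.309) ended. So did the HFD_CR minus HFD calls of Scarb2 (-0.17, adjusted p = 0.0815) and Lamp2 (-0.09, adjusted p = 0.303).

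Of the 4 genes that export cholesterol and small molecules, 3 rose in HFD against LFD mice and the same 3 fell in HFD_CR against HFD mice. Npc1 and Npc2 hand cholesterol from the lysosome's interior to its membrane. Npc1 measured 10.55, 10.35, 10.45, 10.55 and 10.58 in HFD_CR mice, 10.58 to 10.98 (median 10.81) in HFD mice and 10.06 to 10.23 (median 10.13) in LFD mice. Every HFD_CR mouse lay above every LFD mouse, and the HFD_CR and HFD ranges met at their edges. Npc1 differed by 0.66 ± 0.07 (adjusted p = 4.93e-07) in HFD minus LFD, by -0.31 ± 0.07 (adjusted p = 0.00367) in HFD_CR minus HFD and by 0.36 ± 0.07 (adjusted p = 0.00284) in HFD_CR minus LFD. Npc2 measured 12.94, 12.76, 12.78, 12.86 and 12.78 in HFD_CR mice, 13.02 to 13.12 (median 13.04) in HFD mice and 12.63 to 12.80 (median 12.74) in LFD mice. The HFD mice lay above all others. Npc2 differed by 0.33 ± 0.04 (adjusted p = 1.55e-05) in HFD minus LFD and by -0.23 ± 0.05 (adjusted p = 0.00154) in HFD_CR minus HFD, and its HFD_CR minus LFD difference of 0.10 ± 0.05 did not pass (adjusted p = 0.222). Without the 6 arrays with high muscle or gland lists, the HFD_CR minus HFD difference of Npc1 was -0.23 (adjusted p = 0.0788).

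Cln3, whose loss causes juvenile Batten disease in humans, measured 9.21, 9.14, 9.14, 9.19 and 9.27 in HFD_CR mice, 9.42 to 9.85 (median 9.60) in HFD mice and 9.002 to 9.45 (median 9.22) in LFD mice. All HFD_CR mice lay below the HFD range, and the HFD and LFD ranges overlapped. Cln3 differed by 0.40 ± 0.08 (adjusted p = 0.00101) in HFD minus LFD and by -0.42 ± 0.08 (adjusted p = 0.00164) in HFD_CR minus HFD. Ctns, the cystine exporter, measured 10.14, 10.11, 10.30, 10.22 and 10.22 in HFD_CR mice, 10.17 to 10.39 (median 10.29) in HFD mice and 9.95 to 10.61 (median 10.06) in LFD mice. The high end of the LFD range was LFD mouse 3 alone, and the groups otherwise lay close together. The Ctns difference of 0.17 ± 0.09 in HFD minus LFD did not pass (adjusted p = 0.165), and it was 0.27 without LFD mouse 3 (adjusted p = 0.00049). In HFD_CR minus LFD it was 0.08 ± 0.09 (adjusted p = 0.693) and 0.17 without LFD mouse 3 (adjusted p = 0.048).

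The mucolipins are calcium-permeable channels of endosomes and lysosomes, and 1 of the 3 changed. Mcoln2, which in mice is known from immune cells, measured 8.39, 8.31, 8.33, 8.20 and 8.05 in HFD_CR mice, 8.79 to 9.05 (median 8.86) in HFD mice and 8.21 to 8.80 (median 8.44) in LFD mice. All HFD_CR mice lay below all HFD mice, and the LFD range overlapped both. Mcoln2 differed by 0.38 ± 0.09 (adjusted p = 0.00301) in HFD minus LFD and by -0.63 ± 0.09 (adjusted p = 9.97e-05) in HFD_CR minus HFD, so that its HFD_CR mean of 8.26 stood below the LFD mean of 8.51. That HFD_CR minus LFD difference of -0.25 ± 0.09 did not pass (adjusted p = 0.103) and did without LFD mouse 6 (-0.31, adjusted p = 0.0311). Mcoln1, the widely expressed channel of the family, measured 10.65, 10.64, 10.68, 10.66 and 10.70 in HFD_CR mice, 10.50 to 10.70 (median 10.65) in HFD mice and 10.44 to 10.73 (median 10.65) in LFD mice. Its 3 groups overlapped, with differences of 0.01 ± 0.05 in HFD minus LFD (adjusted p = 0.928) and 0.03 ± 0.05 in HFD_CR minus HFD (adjusted p = 0.762). Mcoln3 measured 6.67, 6.79, 6.58, 6.79 and 6.79 in HFD_CR mice, 6.71 to 6.91 (median 6.82) in HFD mice and 6.63 to 7.05 (median 6.77) in LFD mice. Mcoln3 lay below the array median in all 17 mice, where a signal may lie at background, and its difference was 0.04 ± 0.06 in HFD minus LFD (adjusted p = 0.74).

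**Figure D3:**
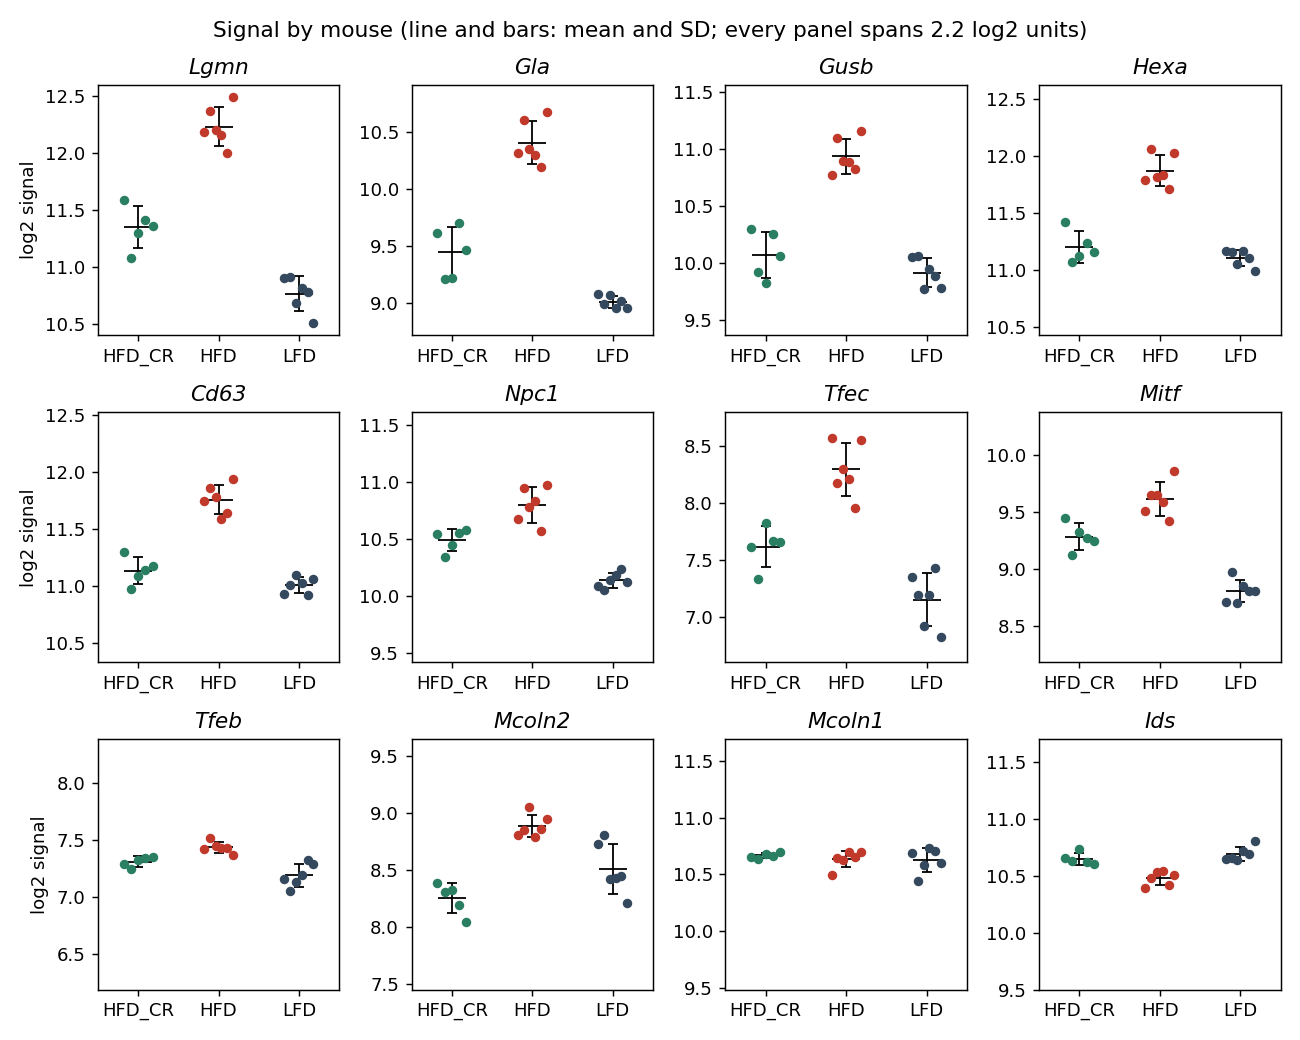
Log2 signal by mouse for 12 of the 38 genes in HFD_CR (5 mice), HFD (6) and LFD (6), with the mean and SD of each group. Each panel covers the same span of log2 units. HFD mice stand apart at the top for Lgmn, Gla, Gusb, Hexa and Cd63, the 3 groups overlap for Mcoln1, and Ids is lowest in HFD mice.

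Glycosaminoglycans, the sugar chains of proteoglycans, are taken apart by enzymes that act in turn, and 7 of their genes were measured. In HFD against LFD mice 5 rose and 2 fell, and in HFD_CR against HFD mice 3 fell and 1 rose. Gusb, the beta-glucuronidase, measured 10.29, 9.92, 9.82, 10.25 and 10.06 in HFD_CR mice, 10.77 to 11.15 (median 10.89) in HFD mice and 9.77 to 10.05 (median 9.91) in LFD mice. The HFD mice stood apart, and the HFD_CR mice ran from the LFD range to just above it. Gusb differed by 1.02 ± 0.09 (adjusted p = 1.09e-07) in HFD minus LFD, 2.03-fold, and by -0.87 ± 0.09 (adjusted p = 8.92e-06) in HFD_CR minus HFD. Galns, a sulfatase for keratan sulfate, measured 8.72, 8.71, 8.65, 8.57 and 8.63 in HFD_CR mice, 8.91 to 9.45 (median 9.13) in HFD mice and 8.25 to 8.69 (median 8.56) in LFD mice. The HFD mice were again above all others. Galns differed by 0.66 ± 0.08 (adjusted p = 8.46e-06) in HFD minus LFD and by -0.51 ± 0.09 (adjusted p = 0.000426) in HFD_CR minus HFD. Naglu, which removes N-acetylglucosamine from heparan sulfate, differed by 0.29 ± 0.06 (adjusted p = 0.000546) in HFD minus LFD and by -0.31 ± 0.06 (adjusted p = 0.000932) in HFD_CR minus HFD. Idua and Sgsh, also enzymes of heparan sulfate breakdown, rose by 0.20 ± 0.04 and 0.17 ± 0.05 in HFD minus LFD and did not pass in HFD_CR minus HFD (adjusted p = 0.214 and 0.84). Without the 6 arrays with high muscle or gland lists their HFD minus LFD differences were 0.16 for Idua (adjusted p = 0.0758) and 0.11 for Sgsh (adjusted p = 0.313). Sgsh also did not pass with quantile normalization applied again (0.11, adjusted p = 0.089).

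Ids and Arsb went the other way. Ids, the iduronate sulfatase, measured 10.66, 10.63, 10.73, 10.62 and 10.61 in HFD_CR mice, 10.39 to 10.54 (median 10.49) in HFD mice and 10.64 to 10.81 (median 10.68) in LFD mice. The HFD mice lay below all HFD_CR and all LFD mice, as was so against LFD mice for 5.21% of all genes. Ids differed by -0.21 ± 0.04 (adjusted p = 0.000763) in HFD minus LFD and by 0.17 ± 0.04 (adjusted p = 0.0103) in HFD_CR minus HFD. Arsb, a sulfatase for dermatan sulfate, measured 10.66, 10.66, 10.77, 10.74 and 10.74 in HFD_CR mice, 10.50 to 10.73 (median 10.62) in HFD mice and 10.58 to 10.85 (median 10.77) in LFD mice. The groups overlapped throughout. Arsb differed by -0.14 ± 0.05 (adjusted p = 0.0363) in HFD minus LFD. That call ended when any of HFD mice 1, 3 and 6 or LFD mice 1, 3, 4, 5 and 6 was left out (-0.15 to -0.12, adjusted p of 0.0522 to 0.0909). The second probe set of Arsb, which was dimmer, was higher in HFD than in LFD mice by 0.37, so the direction for Arsb is not settled, and with both probe sets averaged the difference was 0.11 (adjusted p = 0.176).

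Among 6 enzymes of glycogen and glycoprotein breakdown, 5 rose in HFD against LFD mice and 4 fell in HFD_CR against HFD mice. Man2b1, the alpha-mannosidase, measured 11.71, 11.55, 11.51, 11.69 and 11.65 in HFD_CR mice, 11.91 to 12.18 (median 12.08) in HFD mice and 11.22 to 11.71 (median 11.59) in LFD mice. The HFD mice lay above all others. Man2b1 differed by 0.51 ± 0.07 (adjusted p = 3.15e-05) in HFD minus LFD and by -0.43 ± 0.08 (adjusted p = 0.000559) in HFD_CR minus HFD. Manba, the beta-mannosidase, measured 9.24, 9.09, 9.11, 9.13 and 8.91 in HFD_CR mice, 9.39 to 9.64 (median 9.44) in HFD mice and 8.65 to 9.07 (median 8.999) in LFD mice. The HFD mice again lay above all others. Manba differed by 0.54 ± 0.07 (adjusted p = 2.15e-05) in HFD minus LFD and by -0.37 ± 0.08 (adjusted p = 0.00233) in HFD_CR minus HFD. The sialidase gene Neu1 differed by 0.43 ± 0.07 (adjusted p = 6.12e-05) in HFD minus LFD and by -0.30 ± 0.07 (adjusted p = 0.00416) in HFD_CR minus HFD. Aga, which cuts the link between glycan and asparagine, differed by 0.33 ± 0.06 (adjusted p = 0.00053) in HFD minus LFD and did not pass in HFD_CR minus HFD (-0.17 ± 0.07, adjusted p = 0.0842). Gaa, the acid glucosidase that breaks down glycogen, measured 10.62, 10.52, 10.40, 10.65 and 10.60 in HFD_CR mice, 10.45 to 10.62 (median 10.50) in HFD mice and 10.40 to 10.55 (median 10.52) in LFD mice. Its groups overlapped, with a difference of 0.03 ± 0.05 in HFD minus LFD (adjusted p = 0.749).

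Fuca1, the fucosidase, was near the threshold, at 0.16 ± 0.06 (adjusted p = 0.0463) in HFD minus LFD and -0.18 ± 0.06 (adjusted p = 0.0441) in HFD_CR minus HFD, and its groups overlapped. The first call ended when any HFD_CR mouse, any of HFD mice 1, 2, 4 and 6 or any of LFD mice 1, 2, 4, 5 and 6 was left out (0.13 to 0.16, adjusted p of 0.0524 to 0.107). The second ended when any of HFD_CR mice 2, 3, 4 and 5, HFD mice 1, 2, 4 and 6 or LFD mice 1, 4 and 5 was left out (-0.18 to -0.16, adjusted p of 0.0504 to 0.0975). With quantile normalization applied again the differences were 0.08 (adjusted p = 0.247) and -0.12 (adjusted p = 0.119).

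Sphingolipids are degraded by hydrolases and by the activator proteins that lift the lipid to them, and 5 of 7 such genes rose in HFD against LFD mice while 4 fell in HFD_CR against HFD mice. Gla, the alpha-galactosidase that clears globosides and is deficient in Fabry disease in humans, measured 9.61, 9.21, 9.22, 9.71 and 9.47 in HFD_CR mice, 10.20 to 10.67 (median 10.34) in HFD mice and 8.96 to 9.08 (median 9.004) in LFD mice. The 3 groups did not overlap, with HFD mice highest and LFD mice lowest. Gla differed by 1.40 ± 0.09 (adjusted p = 8.46e-09) in HFD minus LFD, 2.63-fold, by -0.96 ± 0.10 (adjusted p = 6.56e-06) in HFD_CR minus HFD and by 0.43 ± 0.10 (adjusted p = 0.00734) in HFD_CR minus LFD. Hexa, a subunit of hexosaminidase, measured 11.42, 11.07, 11.12, 11.24 and 11.15 in HFD_CR mice, 11.72 to 12.06 (median 11.82) in HFD mice and 10.99 to 11.17 (median 11.13) in LFD mice. Here the HFD_CR mice overlapped the LFD mice and lay below all HFD mice. Hexa differed by 0.77 ± 0.07 (adjusted p = 1.39e-07) in HFD minus LFD, by -0.67 ± 0.07 (adjusted p = 8.6e-06) in HFD_CR minus HFD and by 0.10 ± 0.07 (adjusted p = 0.479) in HFD_CR minus LFD. Gm2a, the activator protein that presents ganglioside to hexosaminidase, measured 12.87, 12.81, 12.85, 12.78 and 12.78 in HFD_CR mice, 12.79 to 12.90 (median 12.82) in HFD mice and 12.78 to 12.90 (median 12.86) in LFD mice. Its groups overlapped, and its differences were -0.03 ± 0.04 in HFD minus LFD (adjusted p = 0.646) and -0.01 ± 0.04 in HFD_CR minus HFD (adjusted p = 0.865).

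Psap, the precursor of the saposin activators, differed by 0.43 ± 0.05 (adjusted p = 2.17e-06) in HFD minus LFD and by -0.29 ± 0.05 (adjusted p = 0.000576) in HFD_CR minus HFD. Asah1, the acid ceramidase, differed by 0.53 ± 0.08 (adjusted p = 5.72e-05) and -0.34 ± 0.08 (adjusted p = 0.00716) in the same comparisons. Arsa, the sulfatase for sulfatide, rose by 0.17 ± 0.04 in HFD minus LFD (adjusted p = 0.00606), a call that ended without the 6 arrays with high muscle or gland lists (0.16, adjusted p = 0.0859) and with quantile normalization applied again (0.10, adjusted p = 0.08). Smpd1, the acid sphingomyelinase, did not pass, at -0.09 ± 0.05 in HFD minus LFD (adjusted p = 0.198) and -0.03 ± 0.05 in HFD_CR minus HFD (adjusted p = 0.721). Its second probe set gave -0.05 and -0.04. With array weights Smpd1 passed, at -0.13 in HFD minus LFD (adjusted p = 0.0146) and -0.15 in HFD_CR minus LFD (adjusted p = 0.0193).

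Of the peptidases and the thioesterase, 2 of 3 rose in HFD against LFD mice. Lgmn, the asparaginyl endopeptidase legumain, which also processes cathepsins, measured 11.59, 11.08, 11.29, 11.41 and 11.36 in HFD_CR mice, 12.00 to 12.49 (median 12.19) in HFD mice and 10.51 to 10.91 (median 10.80) in LFD mice. The 3 groups did not overlap, in the order HFD, HFD_CR and LFD from the top. Lgmn had the largest rise of the 38 genes, 1.47 ± 0.09 (adjusted p = 7.05e-09) or 2.76-fold in HFD minus LFD, and differed by -0.89 ± 0.10 (adjusted p = 1.01e-05) in HFD_CR minus HFD and by 0.58 ± 0.10 (adjusted p = 0.000874) in HFD_CR minus LFD. Tpp1, a peptidase that trims tripeptides, measured 11.97, 11.85, 11.96, 11.86 and 11.95 in HFD_CR mice, 11.95 to 12.20 (median 12.08) in HFD mice and 11.76 to 11.95 (median 11.91) in LFD mice. HFD and LFD values met at a single edge. Tpp1 differed by 0.19 ± 0.05 (adjusted p = 0.00866) in HFD minus LFD, and its -0.16 ± 0.05 in HFD_CR minus HFD did not pass (adjusted p = 0.052) but did so at -0.18 when HFD mouse 1 was left out (adjusted p = 0.0316), at -0.18 when HFD mouse 5 was (adjusted p = 0.0228) and at -0.16 when LFD mouse 3 was (adjusted p = 0.0379). Without the 6 arrays with high muscle or gland lists the HFD minus LFD difference of Tpp1 was 0.12 (adjusted p = 0.298). Ppt1, which strips palmitate from proteins, measured 11.99, 11.89, 11.87, 11.76 and 11.91 in HFD_CR mice, 11.85 to 12.00 (median 11.94) in HFD mice and 11.74 to 11.89 (median 11.83) in LFD mice. All groups overlapped, and Ppt1 did not pass in any comparison (0.10 ± 0.04 in HFD minus LFD, adjusted p = 0.0925).

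Set side by side, 23 genes rose in HFD against LFD mice and fell in HFD_CR against HFD mice, Ids did the reverse, and 6 genes that rose in HFD against LFD mice (Aga, Arsa, Idua, Sgsh, Tfeb and Tpp1) did not pass in HFD_CR against HFD mice. Over all genes 9.4% showed the first pattern and 4.77% the reverse. Both comparisons share the HFD mice, which ties such mirrored calls together. Of the 29 that rose, 24 had an HFD_CR mean between the HFD and LFD means, and 5 (Cln3, Fuca1, Lamp1, Mcoln2 and Naglu) had one at or below the LFD mean. For Cln3, Fuca1, Lamp1 and Naglu the HFD_CR minus LFD difference was only -0.03 to -0.02, smaller than its SE. In HFD_CR against LFD mice the genes that rose were Npc1, Tfec, Mitf, Gla and Lgmn, by 0.36 to 0.58. For the other 33 no difference passed, which does not show that HFD_CR and LFD mice were alike in them. Among these, Sgsh had 0.15 ± 0.05 (adjusted p = 0.0663) and passed at 0.15 without HFD mouse 5 (adjusted p = 0.044) and at 0.17 without LFD mouse 4 (adjusted p = 0.048), and Aga had 0.16 ± 0.07 (adjusted p = 0.15) and passed without HFD_CR mouse 3 (0.22, adjusted p = 0.0486). Scarb2 had 0.14 ± 0.05 (adjusted p = 0.0864) and Psap 0.15 ± 0.05 (adjusted p = 0.0855). With only genes above the median level Sgsh, Scarb2 and Psap passed (adjusted p = 0.0335, 0.0445 and 0.0444). Psap also passed with another variance model (adjusted p = 0.0437). Ctns, Gaa, Gm2a, Mcoln1, Mcoln3, Ppt1 and Smpd1 had no call in any of the 3 comparisons. The spread between mice of a group was small for these genes, with a median SD of 0.101 over the 38 genes and 0.12 over all genes, from 0.040 for Gm2a to 0.221 for Tfec.

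Of 94 further genes of the lysosome listed by role, 84 were measured, and 44 rose and 6 fell in HFD against LFD mice. In HFD_CR against HFD mice 37 fell and 3 rose, and in HFD_CR against LFD mice 15 rose and 5 fell. Over all genes 16.5% rose and 11.3% fell in the first comparison. In the second 11.3% fell and 7.69% rose, and in the third 5.8% rose and 3.28% fell. The same shares stand beside the counts per list below. Among 25 hydrolases and their partners, 13 rose and 2 fell in HFD against LFD mice. Lipa, the acid lipase that releases fatty acids and cholesterol, differed by 1.53 ± 0.11 (adjusted p = 1.87e-08) in HFD minus LFD and by -0.90 ± 0.11 (adjusted p = 2.7e-05) in HFD_CR minus HFD. Galc, which degrades galactosylceramide, rose by 0.87 ± 0.10 and Epdr1 by 0.87 ± 0.10 in HFD minus LFD (adjusted p = 1.71e-06 and 1.88e-06). The 2 that fell were the acid phosphatase gene Acp5 (-0.34 ± 0.04, adjusted p = 1.44e-05) and Plbd1 (-0.16 ± 0.05, adjusted p = 0.0365).

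Among 29 other membrane proteins, channels and transporters, 18 rose and 2 fell. Gpnmb, a glycoprotein of lipid-laden macrophages, differed by 3.67 ± 0.28 (adjusted p = 3.7e-08) in HFD minus LFD and by -1.48 ± 0.29 (adjusted p = 0.00151) in HFD_CR minus HFD. The sugar phosphate exchanger gene Slc37a2 differed by 2.72 ± 0.18 (adjusted p = 1.2e-08) and -1.84 ± 0.19 (adjusted p = 8.6e-06), and the peptide transporter gene Slc15a3 by 1.93 ± 0.12 (adjusted p = 8.32e-09) and -1.54 ± 0.13 (adjusted p = 3.26e-06), in the same comparisons. Abca2 (-0.51 ± 0.06, adjusted p = 5.59e-06) and Sidt2 (-0.23 ± 0.04, adjusted p = 0.000605) fell in HFD against LFD mice.

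Of 15 genes that sort new enzymes to the lysosome, 7 rose and 1 fell in HFD against LFD mice. Igf2r, the large mannose 6-phosphate receptor, differed by 0.74 ± 0.07 (adjusted p = 1.74e-07) in HFD minus LFD and by -0.50 ± 0.07 (adjusted p = 6.04e-05) in HFD_CR minus HFD. Nagpa, which uncovers the mannose 6-phosphate tag, differed by 0.34 ± 0.05 (adjusted p = 3.43e-05) and -0.25 ± 0.05 (adjusted p = 0.00238). The sorting receptor gene Sort1, which also serves glucose transporter vesicles in adipocytes, fell in HFD against LFD mice (-0.39 ± 0.04, adjusted p = 8.04e-07) and rose in HFD_CR against HFD mice (0.30 ± 0.04, adjusted p = 7.75e-05). Of 15 genes that sense nutrients on the lysosomal surface, 6 rose and 1 fell in HFD against LFD mice. The folliculin partner genes Fnip2 and Fnip1 rose by 1.29 ± 0.10 and 0.43 ± 0.05 (adjusted p = 4.93e-08 and 4.14e-06) and the scaffold gene Lamtor3 by 0.36 ± 0.04 (adjusted p = 3.3e-06), whereas the kinase gene Mtor fell (-0.19 ± 0.04, adjusted p = 0.00346). Sort1 and Lamtor3 each have 2 probe sets, and the dimmer one was not examined by itself.

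**Figure D4:**
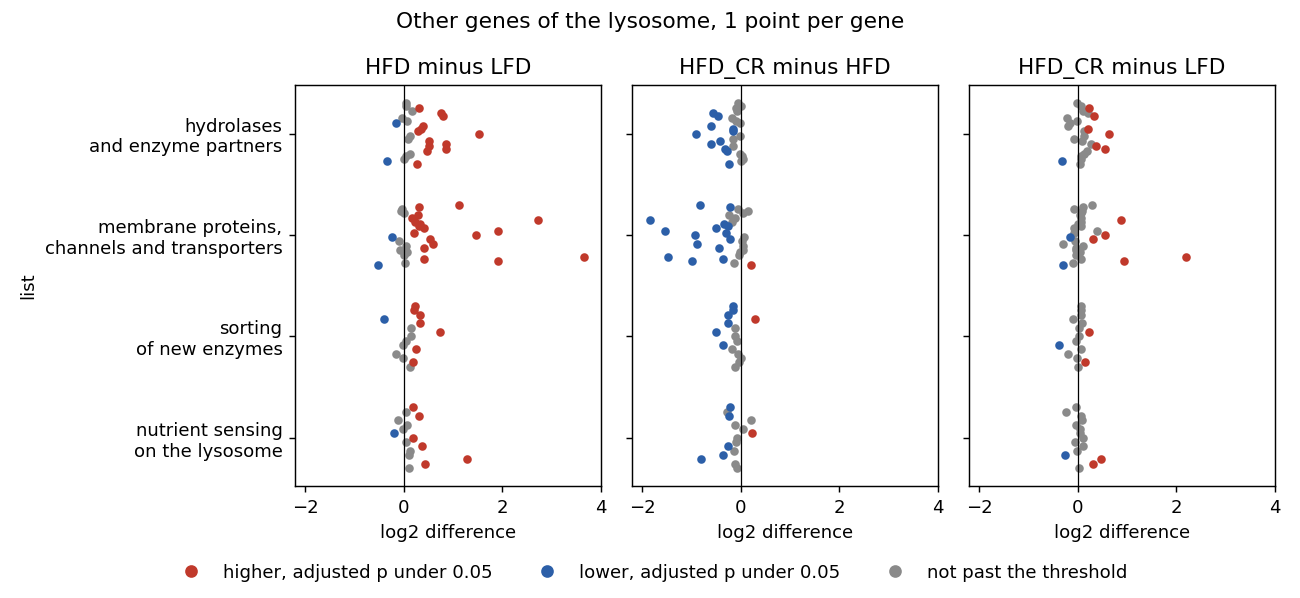
Log2 differences of the 84 further lysosomal genes, 1 point per gene, by list (rows) in HFD minus LFD (left), HFD_CR minus HFD (middle) and HFD_CR minus LFD (right). Red points rose and blue points fell at an adjusted p under 0.05, and grey points did not pass. Red points outnumber blue in the left panel (44 against 6), and blue outnumber red in the middle panel (37 against 3). Of all genes, 16.5% rose and 11.3% fell in the left comparison, and 11.3% fell and 7.69% rose in the middle one.

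Most macrophage markers moved with the lysosomal genes. Of 15 such markers, 10 rose and 1 fell (Timd4, -0.42 ± 0.11) in HFD against LFD mice, and 10 fell and 1 rose (Mertk, 0.39 ± 0.07) in HFD_CR against HFD mice. Over all genes 16.5% rose and 11.3% fell in the first comparison, and 11.3% fell and 7.69% rose in the second. Their summed log2 signal ran from 139.8 to 142.8 in HFD_CR, from 145.6 to 151.8 in HFD and from 134.8 to 140.2 in LFD mice. The macrophage receptor genes Trem2, Itgax and Adgre1 differed by 3.07 ± 0.21 (adjusted p = 1.05e-08), 2.99 ± 0.23 (adjusted p = 3.9e-08) and 1.31 ± 0.14 (adjusted p = 1.04e-06) in HFD minus LFD. With Fcgr1 (1.47 ± 0.14) these were the largest rises of the list. In the same comparison 4 markers had negative differences: Timd4, Mertk (-0.14 ± 0.06, adjusted p = 0.113), Cd163 (-0.155 ± 0.134, adjusted p = 0.446) and Marco (-0.09 ± 0.08, adjusted p = 0.446). In HFD_CR minus LFD, Itgax (1.40 ± 0.24), Trem2 (1.59 ± 0.22) and Mertk (0.25 ± 0.07) rose, and the other 12 had no call. Marco and Clec4f, receptors of other resident macrophages, had means below the lowest array median in all 3 groups. The mean over the 38 lysosomal genes was 10.32 ± 0.05 in HFD_CR (SD, n = 5), 10.61 ± 0.07 in HFD and 10.21 ± 0.05 in LFD mice (SD, n = 6 each). HFD mouse 6 was highest and HFD mouse 5 lowest of the HFD mice both in that mean and in the macrophage mean. The part of the macrophage share in the lysosomal differences was not tested.

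Adipocyte markers moved the other way in part. Of 7, 5 fell and 1, Lep, rose in HFD against LFD mice, and 5 rose in HFD_CR against HFD mice. Over all genes 11.3% fell and 16.5% rose in the first comparison, and 7.69% rose in the second. Their summed log2 signal ran from 89.8 to 90.5 in HFD_CR, from 88.4 to 89.3 in HFD and from 89.0 to 90.1 in LFD mice. Plin1 differed by -0.33 ± 0.05 (adjusted p = 3.54e-05) in HFD minus LFD and by 0.28 ± 0.05 (adjusted p = 0.000694) in HFD_CR minus HFD. The part of the adipocyte share was not tested. Of 6 monocyte and neutrophil markers, Ccr2 (0.46 ± 0.13) and S100a8 (0.65 ± 0.11) rose in HFD against LFD mice and fell in HFD_CR against HFD mice. Over all genes 16.5% rose in the first comparison and 11.3% fell in the second. S100a8 averaged 6.45 in LFD and 6.55 in HFD_CR mice, below the lowest array median of 7.03, where a signal may lie at background. The other 4 had no call in either comparison. In HFD minus LFD they had -0.12 (Ly6c2), -0.01 (S100a9), 0.03 (Ngp) and -0.02 (Ly6g). B and T cell markers had no call among 6 genes in any of the 3 comparisons, and their summed signal in LFD mice, from 46.1 to 55.0, spanned the ranges of HFD_CR and HFD mice.

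**Figure D5:**
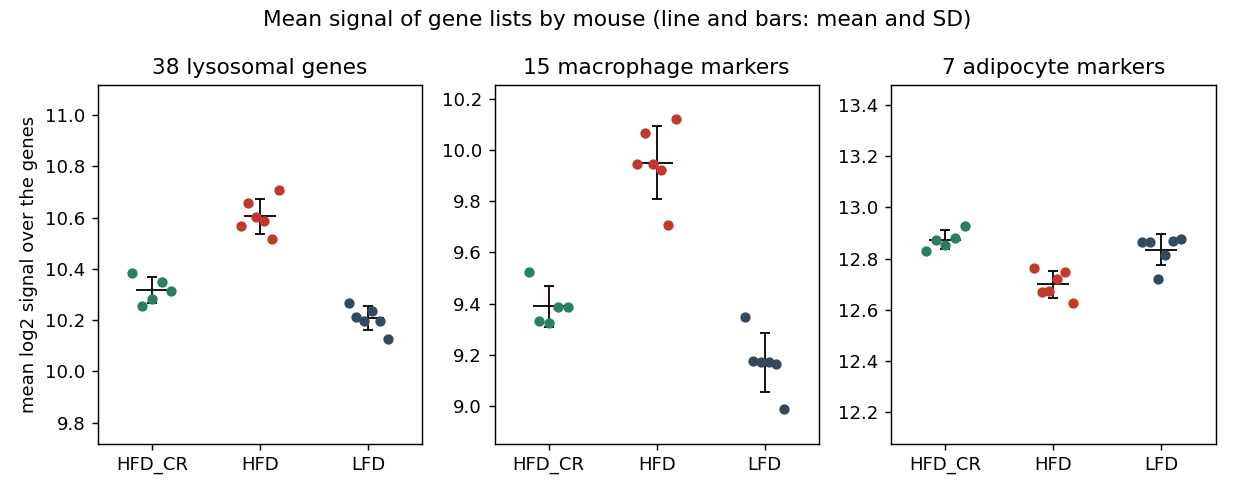
Mean log2 signal by mouse over the 38 lysosomal genes, 15 macrophage markers and 7 adipocyte markers in HFD_CR (5 mice), HFD (6) and LFD (6), with the mean and SD of each group. Each panel spans the same number of log2 units. HFD mice lie above the other mice in the first and second panels, and the HFD mean is the lowest in the third.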

How the data were processed

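Periprostatic fat RNA of 17 mice was hybridised to 1 single-colour array each. The deposited values are log2 signals per probe set, already normalized by the authors; the submitters' processing notes name RMA, limma and R 3.5.0 without roles. No scan batch or detection call was at hand, so a signal's distance from background is unknown. Precision is limited by the number of arrays. Of 33793 probe sets, 23521 carried 1 gene symbol in the platform annotation, 1814 several and 8458 none. The probe set with the highest mean over all arrays stood for its gene, which left 22180 genes.

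Differences came from limma 3.58.1 (R 4.3.3), with 1 mean per group over all 17 arrays and Benjamini-Hochberg adjustment over all genes. The fit was tested on simulated data. The labels describe separate mice, so p-values measure the spread between mice. The 38 genes and the lists were chosen with earlier results of these data known. Values for every mouse or range are given, per role, for the 2 genes with the smallest and the 1 with the largest p in HFD minus LFD, all genes of groups of 3 or 4, and any called against the majority. Among further lysosomal genes the 3 called ones with the largest difference per list were named, and any of opposite sign. Deviations of same-numbered mice correlated at -0.108 to 0.409 (16 pairs, median 0.041), and 5 pairs exceeded 0.1. Those of differently numbered mice correlated at -0.307 to 0.317 (80 pairs, median -0.024), and 11 exceeded 0.1. The labels name no pairing, so numbers were not used as pairs in the main fit. These correlations do not exclude a link by number. Alternatives changed the arrays, probe set choice, dim-gene filter, scaling, variance model, weights and thresholds. Leaving out arrays with high tissue lists, and setting dim signals to array medians, were chosen after seeing the data. Promoters are RefSeq's on GRCm38.p6. Figures used Python 3.11.15 and matplotlib 3.10.9.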

Additional observations from a re-analysis of the deposited data

Results flagged for a closer look

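Each of the 38 genes was searched in each group for a mouse far from the others, meaning a gap to the nearest mouse above Dixon's critical value (0.71 of the range for 5 mice, 0.625 for 6). Of 114 groups 3 held such a mouse, and chance flags about 1 in 20 groups. Ctns, the cystine exporter, measured 10.61 in LFD mouse 3, against 10.10 in the next LFD mouse. Fuca1, the fucosidase, measured 10.97 in the same LFD mouse 3, against 10.73 in the next. That array was among those with a high muscle or gland list and among those with a high thermogenic list. Sgsh, the sulfamidase of heparan sulfate breakdown, measured 9.78 in HFD_CR mouse 1, against 9.65 in the next HFD_CR mouse, and that array had the high germ cell list. Whether these lists bear on the 3 values was not tested.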

How the results depend on the processing

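Over 28 alternatives to the arrays, probe sets, scaling and model, 8 of the 38 genes lost a call in HFD minus LFD under at least 1 of them (Arsa, Arsb, Fuca1, Idua, Lamp1, Lamp2, Sgsh and Tpp1) and 2 gained one. In HFD_CR minus HFD 5 lost a call (Fuca1, Lamp2, Mitf, Npc1 and Scarb2) and 4 gained one, and in HFD_CR minus LFD 1, Tfec, lost and 7 gained. Arsb turned round in HFD minus LFD when its probe sets were averaged (0.111), because the second probe set ran the other way. Leaving out 1 mouse at a time gave 28 to 30 higher and 1 to 2 lower genes in HFD minus LFD, 1 higher and 21 to 24 lower in HFD_CR minus HFD, and 4 to 6 higher and 0 to 1 lower in HFD_CR minus LFD. The median differences then ran from 0.314 to 0.35, from -0.247 to -0.207 and from 0.075 to 0.119. Among the further lysosomal genes the same gave 42 to 46 higher and 5 to 6 lower, 2 to 4 higher and 31 to 41 lower, and 12 to 19 higher and 4 to 7 lower, in the same order of comparisons. The labels do not say that mouse numbers pair the animals. With these numbers as a replicate block 1 gene was lower in HFD minus LFD, and Tfec in HFD_CR minus LFD was 0.458 (adjusted p = 0.0583). The count of lower genes there was also 1 with probe sets averaged, with only the compared arrays, at an adjusted p under 0.01, without the muscle or gland arrays and without the thermogenic arrays. Quantile normalization applied again gave a median of 0.268 in HFD minus LFD, 2 higher genes in HFD_CR minus HFD and 1 lower in HFD_CR minus LFD, where array weights also gave 1 lower. With only genes above the median level, 8 genes were higher in HFD_CR minus LFD, as were 1473 of all genes fitted. Asking for a 1.5-fold difference left 10 higher and 0 lower in HFD minus LFD, 0 higher and 7 lower in HFD_CR minus HFD, and 0 higher in HFD_CR minus LFD. Among the further lysosomal genes it left 14 and 0, 0 and 11, and 4 and 0. At an adjusted p under 0.01, 0 of the 38 were higher in HFD_CR minus HFD, and 9 further genes were higher and 3 lower in HFD_CR minus LFD. In that comparison 9 further genes were higher without the muscle or gland arrays and 2 lower without the thermogenic arrays. Over all genes, against 2502 lower in HFD minus LFD, 1585 were lower without the muscle or gland arrays and 1541 at an adjusted p under 0.01. In HFD_CR minus HFD, against 1705 higher and 2508 lower, there were 1058 and 1639 without those arrays, 965 and 1610 at an adjusted p under 0.01, and 2630 higher with array weights. In HFD_CR minus LFD, against 1287 and 728, there were 739 and 479 without those arrays, 725 and 334 without the thermogenic arrays, and 615 and 352 at an adjusted p under 0.01. A 1.5-fold difference left 830 and 302, 190 and 504, and 206 and 98. Leaving out arrays lowers the number of mice; other causes of these shifts were not tested. Mcoln3, Tfeb and Tfec lay near the array medians, where small differences may be lost.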

Other observations

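Some genes that act on the same substrate or by the same chemistry had unlike values. Hexa, which cuts gangliosides, had a difference of 0.77 ± 0.07 in HFD minus LFD, and Gm2a, which presents them to it, had -0.03 ± 0.04. Among the sulfatases Galns had 0.66 ± 0.08 and Ids -0.21 ± 0.04. The cholesterol route from Lipa (1.53 ± 0.11) over Npc2 (0.33 ± 0.04) to Npc1 (0.66 ± 0.07) rose at each step in HFD against LFD mice. In HFD_CR minus LFD the same route had 0.63 ± 0.11 for Lipa (adjusted p = 0.00157), 0.10 ± 0.05 for Npc2 (adjusted p = 0.222) and 0.36 ± 0.07 for Npc1 (adjusted p = 0.00284). These genes were set together after their values were seen, and the differences between them were not tested.

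The unused, dimmer probe set of Npc1 had differences of 0.19 in HFD minus LFD and -0.16 in HFD_CR minus HFD, in the direction of the one used. That of Arsb had 0.37 and -0.26, against -0.14 and 0.10 for the one used. The summed log2 signal of 5 thermogenic adipocyte genes ran from 34.4 to 37.9 in HFD_CR, from 35.9 to 39.8 in HFD and from 36.7 to 54.2 in LFD mice.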
